A study of Mus musculus with 12 samples.

Results

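Satellite glia markers, 9 genes typical of the glia that wrap sensory neuron cell bodies, were followed in dorsal root ganglia of mouse pups raised with limited bedding or control bedding. The members were given as a list of names, Apoe, Ednrb, Fbln2, Fbln5, Fabp7, Glul, Slc1a3, Gja1 and Ptn. All 9 were among the 15322 genes of the deposited table and among the 15194 genes tested. Bedding was limited or normal from postnatal day 2 to postnatal day 9, and L3 to L5 lumbar ganglia were taken on day 9. There were 3 libraries each of stress females (limited bedding), control females, stress males and control males. All pups had the genotype WT, and the labels give no strain. Litters, dams and any pooling of animals are not told by the labels, so each p-value reflects only how these samples vary, which may be technical in part.

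Satellite glia form an envelope around each sensory neuron soma, separated from its neighbours by connective tissue. They take up and recycle transmitter, buffer ions, pass signals to each other through gap junctions, supply lipids and secrete matrix and growth factors. They arise from the neural crest with the Schwann cells, with which they share lineage genes such as Sox10 and S100b. Several of the 9 genes are also made by other cells of a ganglion: Apoe by macrophages, and the fibulins by fibroblasts.

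The values were the authors' normalized signal per gene and library, which summed to 21252841 to 22394913 per library. Reads assigned to the genes of the table were estimated from the steps between low values. They came to 16500000 to 27000000 in 11 libraries, while the step of stress female replicate 2 could not be read. These estimates are rough, since in no library did 95% of low values lie near a step. Between 28.9% and 66.3% of low values lay near such a step in stress libraries, against 72.8% to 86.6% in control libraries, with no overlap, and the part of this difference between the treatments in the results was not tested. The sex label matched the sex-linked genes in 12 of 12 libraries. By mean signal per gene, Apoe ranked 47 among the tested genes, the highest of the 9, and Slc1a3 ranked 10243, the lowest. All 16 genes of a second satellite glia list and all 8 glial lineage genes were also measured, but in bulk RNA none of the 9 can be assigned to 1 cell type. For the same reason, fewer cells of a type and less RNA per cell cannot be told apart in any result given here.

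The apolipoprotein, endothelin receptor and fibulin 2 genes were lower after limited bedding in each sex. The gap junction gene was higher over both sexes and in males, while the glutamate handling genes and pleiotrophin did not pass the test. Over both sexes, 4 of 9 markers fell (Apoe, Ednrb, Fbln2 and Fabp7), against 13.4% of all tested genes that were called lower. Gja1 rose, 1 of 9, against 12.8% of all tested genes called higher. Of the 9 markers 5 were called in either direction, against a background of 26.2%. A gene was called at an adjusted p under 0.05 in limma, with Benjamini-Hochberg adjustment over all 15194 genes. The median log2 fold change of stress over control was -0.05 over the 9 markers and 0.0051 over all tested genes. For Apoe, Ednrb and Fbln2 every one of the 6 stress libraries lay below every one of the 6 control libraries, and for Gja1 every stress library lay above. Such separation was seen in 4 of 9 markers and in 10.9% of all tested genes.

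**Figure D1:**
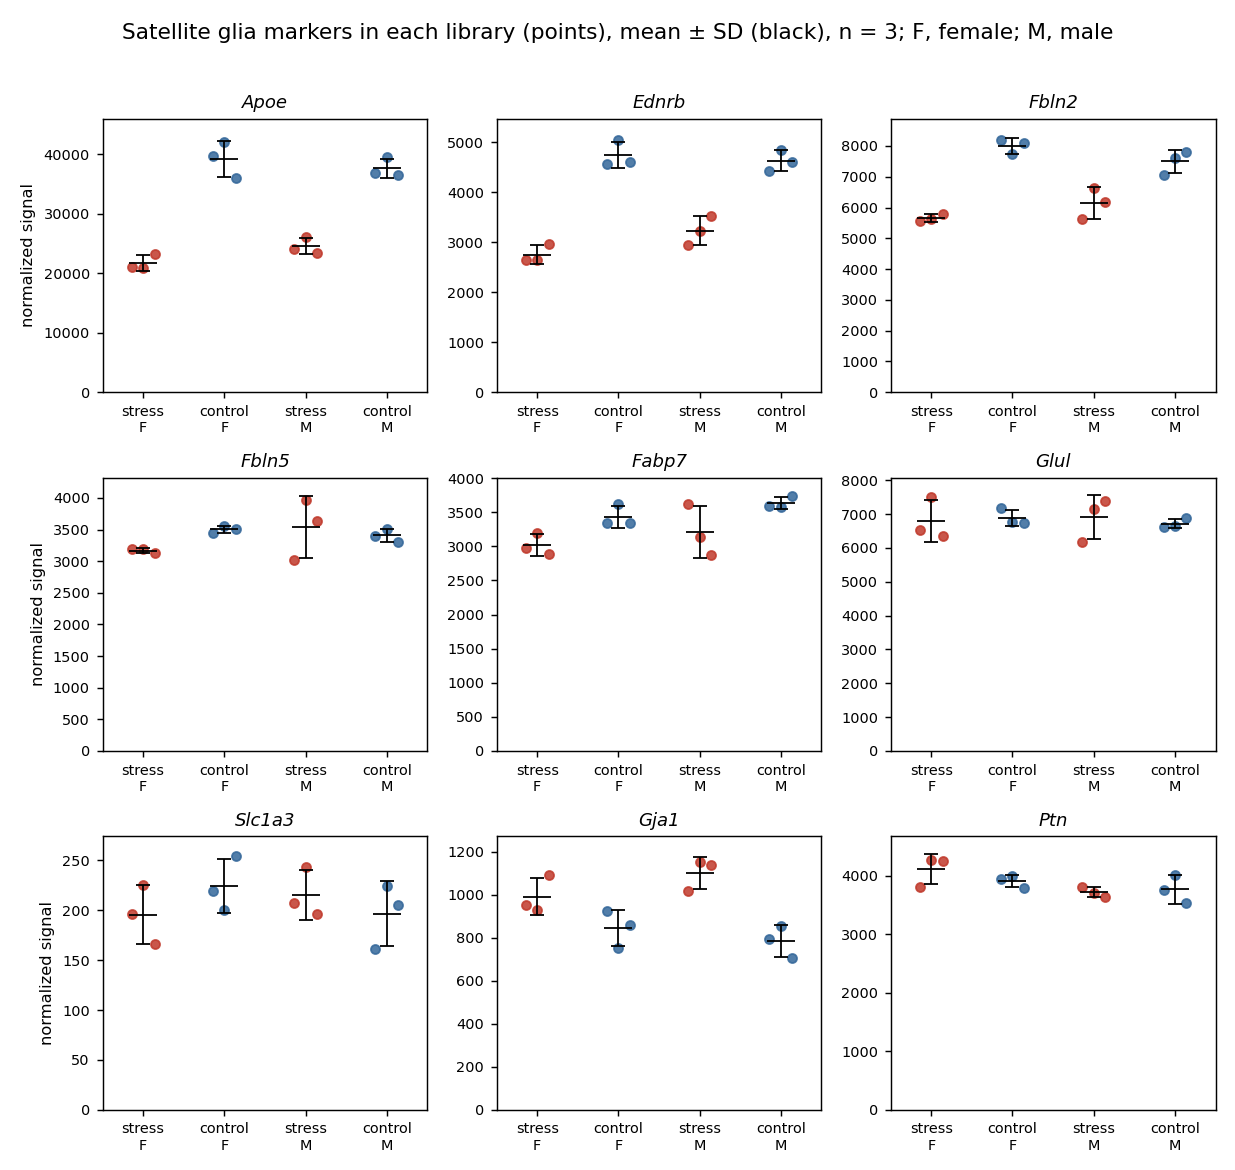
Normalized signal (vertical axis, from 0) of each of the 9 markers in each library (points), with the mean and SD of each group of 3 in black. Red points are stress and blue points are control libraries of females (F) and males (M), and red lies wholly below blue in both sexes for Apoe, Ednrb and Fbln2 and wholly above it for Gja1.

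The promoter sequences of Apoe and Ednrb, the markers with the largest falls, and of Gja1, the one that rose, are shown so that the upstream sequence of genes that moved in opposite directions can be compared. Each is the 150 bases before the gene's start in the RefSeq table for GRCm38.p6, which held all 9 markers, written 5′ to 3′ on the gene's own strand. The windows are chr7:19699189-19699338 on the minus strand for Apoe, chr14:103843702-103843851 on the minus strand for Ednrb and chr10:56377150-56377299 on the plus strand for Gja1. None of these windows overlaps an exon of its gene in GENCODE M21. The Ednrb window lies within the GENCODE M21 span of Ednrb given below, so it is not upstream of the whole annotated gene. For Apoe the RefSeq table held 3 windows, and the others are not shown. Capitals mark motifs on either strand.
Apoe: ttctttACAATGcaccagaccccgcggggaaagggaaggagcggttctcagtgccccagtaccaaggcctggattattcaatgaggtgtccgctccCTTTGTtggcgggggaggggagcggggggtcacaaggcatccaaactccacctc
Ednrb: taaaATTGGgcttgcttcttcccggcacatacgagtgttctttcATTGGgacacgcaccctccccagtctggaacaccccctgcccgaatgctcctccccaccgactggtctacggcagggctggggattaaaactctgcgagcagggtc
Gja1: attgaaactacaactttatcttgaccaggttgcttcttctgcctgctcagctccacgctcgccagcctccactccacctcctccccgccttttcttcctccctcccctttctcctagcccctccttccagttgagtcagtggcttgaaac
The capitals in Apoe are the SOX motifs ACAATG, 144 bases before the start, and CTTTGT, the reverse complement of ACAAAG, 54 bases before it. Those in Ednrb are ATTGG, the reverse complement of CCAAT, 146 and 106 bases before the start, and Gja1 held no searched motif. In windows of 250 bases before the start, ACAAAG was found in 1 of 9 markers and in 16.5% of all 32851 promoters, and ACAATG in 1 of 9 and in 10.7%. CCAAT was found in 6 of 9 markers against 33.8% of all promoters, the GC box GGGCGG in 4 of 9 against 32.7%, and TATAAA in 1 of 9 against 12.4%. The E-box CACGTG was in none of the 9 and in 6.02% of all promoters. These are matches of letters only, and say nothing of whether a factor binds.

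Apoe encodes apolipoprotein E, the secreted carrier that delivers cholesterol and other lipids to cells. It spans chr7:19696109-19699188 on the minus strand (mm10, GENCODE M21). Apoe had a normalized signal of 21087, 20854 and 23278 in stress females, against 39706, 42063 and 36020 in control females. In stress males it had 24141, 26088 and 23430, against 36959, 39528 and 36568 in control males. The highest stress library reached 26088 and the lowest control library 36020, so the groups did not overlap in either sex. Over both sexes Apoe averaged 23146 ± 1961 in stress and 38474 ± 2343 in control libraries (SD, n = 6 each). The level fell by 39.9%, which is a log2 change of -0.74 ± 0.05 (SE, 95% interval -0.84 to -0.63, limma adjusted p = 8.12e-08). By p-value it was the gene ranked 13 of all tested. Because Apoe is so abundant, it alone made up 0.106% of the summed signal in stress libraries and 0.174% in control libraries. The 9 markers together made up 0.232% in stress and 0.315% in control libraries, and the 8 others without Apoe 0.126% and 0.141%.

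Among 16 genes for apolipoprotein E receptors and other lipid carriers, 5 fell, 2 rose and 9 were not called. The share of all tested genes called was 26.2%, and the median log2 fold change of the 16 was -0.11. Clu, which encodes clusterin (apolipoprotein J), fell by 0.49 on the log2 scale, with 3268 to 4184 in stress and 4682 to 5341 in control libraries. Abcg1, a cholesterol exporter, fell by 0.39, with 849 to 1023 in stress and 1168 to 1344 in control libraries. The receptors moved the other way: Lrp8, the apolipoprotein E receptor 2, rose by 0.38 and Vldlr, the very low density lipoprotein receptor, rose by 0.23 (limma adjusted p = 0.000293 and 0.0102). For Clu, Abcg1 and Lrp8 the stress and control libraries did not overlap.

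Ednrb encodes the endothelin B receptor, a G protein coupled receptor that is prominent on peripheral glia and needed for neural crest development. It spans chr14:103814625-103844402 on the minus strand. Ednrb had a normalized signal of 2648, 2639 and 2962 in stress females, against 4561, 5035 and 4612 in control females. In stress males the values were 2942, 3230 and 3516, against 4427, 4851 and 4611 in control males. No stress library came within the control range, and the stress males lay on the whole above the stress females. The mean was 2989 ± 340 in stress and 4683 ± 220 in control libraries (SD, n = 6 each), so it fell by 36.4%. The log2 change was -0.65 ± 0.05 (SE) with a limma adjusted p of 2.6e-07. The proportion of Ednrb to Apoe overlapped between the treatments, at 12.2% to 15.0% in stress and 11.5% to 12.8% in control libraries.

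Of the other 6 genes of the endothelin system, 2 fell, none rose and 4 were not called (26.2% of all tested genes were called). Both that fell encode endothelin-converting enzymes, which cut the precursor to the active peptide. Ece2 fell by 1.03 on the log2 scale, with 301 to 452 in stress and 668 to 851 in control libraries (limma adjusted p = 2.25e-07). It shares its strand with the overlapping gene Gm49333, so how the authors' quantification divided reads between them is uncertain. Ece1 fell by 0.30, with 1835 to 2240 in stress and 2427 to 2586 in control libraries. The ligand genes were scarce: Edn3 lay at 32.3 to 68.4 in stress and 38.3 to 70.9 in control libraries, Edn2 at 8.60 to 23.4 and 10.7 to 23.1, and Edn1 at 5.88 to 18.0 and 2.29 to 18.8. Ednra, the endothelin A receptor, was not called, at 291 ± 34.1 in stress and 264 ± 24.6 in control libraries (SD, n = 6 each).

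Fbln2 and Fbln5 encode fibulins, secreted glycoproteins of basement membranes and elastic fibres, and only Fbln2 was called. Fbln2 (chr6:91212455-91272540, plus strand) had a normalized signal of 5558, 5635 and 5785 in stress females, against 8195, 7724 and 8085 in control females. In stress males it had 5623, 6646 and 6169, against 7072, 7614 and 7814 in control males. The groups did not overlap, and the gap was narrower in males. The mean was 5903 ± 426 in stress and 7751 ± 398 in control libraries (SD, n = 6 each), giving a log2 change of -0.39 ± 0.04 (SE) at a limma adjusted p of 1.01e-05. Fbln5, needed for elastic fibre assembly, spans chr12:101746565-101819055 on the minus strand. It had 3189, 3186 and 3127 in stress females, against 3449, 3550 and 3509 in control females, and 3017, 3972 and 3640 in stress males, against 3402, 3517 and 3308 in control males. In females its stress libraries lay below all control libraries, but it was not called there (limma adjusted p = 0.244). In males its stress libraries lay on both sides of the control range. The male minus female difference was not called (limma adjusted p = 0.642), and the share of all tested genes so separated within females was not counted. Over both sexes the log2 fold change was -0.05 (95% interval -0.16 to 0.06, limma adjusted p = 0.542). Fbln5 was 53.7% to 59.8% of Fbln2 in stress and 42.1% to 48.1% in control libraries, with no overlap.

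Among 17 other fibulin and elastic fibre genes, 3 rose, 3 fell and 11 were not called, against 26.2% of all tested genes called. Their median log2 fold change was -0.0035. Lox, the lysyl oxidase that crosslinks elastin and collagen, rose by 0.73 (1063 ± 239 in stress, 634 ± 98.8 in control; SD, n = 6 each). Eln, which encodes elastin, rose by 0.54 with a wide spread among stress libraries, 3581 to 8764 against 3213 to 3976 in control libraries. Mfap4, a microfibril protein, fell by 0.84, and Efemp2, which encodes fibulin 4, fell by 0.29. Eln, Lox, Mfap4 and Efemp2 each overlap an annotated gene on the opposite strand.

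Fabp7 encodes the brain-type fatty acid binding protein of immature and satellite glia, and spans chr10:57784881-57788450 on the plus strand. Fabp7 had a normalized signal of 2980, 3197 and 2884 in stress females, against 3336, 3617 and 3344 in control females. In stress males it had 3623, 3143 and 2872, against 3598, 3575 and 3737 in control males. The groups were apart in females, whereas stress male replicate 1 lay within the control range. How many of all tested genes were likewise apart in females was not counted. Over both sexes it averaged 3117 ± 282 in stress and 3534 ± 161 in control libraries (SD, n = 6 each), giving a log2 change of -0.18 ± 0.05 (SE) at a limma adjusted p of 0.0153; it fell by 12%. The call was lost with 1 prior variance for all genes (adjusted p = 0.0507) and with scaling to the glial lineage genes (adjusted p = 0.502), the range over 22 alternatives being 0.00175 to 0.502. Within females it was not called (limma adjusted p = 0.121), but with array weights it was, at -0.20 and an adjusted p of 0.0448, which makes 4 markers called in females, and the alternatives ran from 0.0448 to 0.800. Within males it was not called (limma adjusted p = 0.101), but without stress male replicate 1 it was, at -0.28 and an adjusted p of 0.0121, where the alternatives ran from 0.0121 to 0.586. Among 8 other genes for intracellular lipid and retinoid binding proteins, 1 fell, 1 rose and 6 were not called. That is below the 26.2% of all tested genes called over both sexes. Crabp1, a retinoic acid binding protein, fell by 0.60 (106 to 132 in stress, 162 to 201 in control libraries), and Fabp3, another fatty acid binding protein, rose by 0.21.

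Neither marker that clears or recycles glutamate was called. Glul encodes glutamine synthetase, which turns glutamate into glutamine and is a classic protein marker of satellite glia; it spans chr1:153899944-153909723 on the plus strand. Glul had a normalized signal of 6537, 7496 and 6356 in stress females, against 7170, 6762 and 6752 in control females. In stress males it had 6166, 7153 and 7394, against 6626, 6661 and 6881 in control males. Stress libraries lay on both sides of the control range, and the log2 fold change was 0.01 with a 95% interval of -0.10 to 0.11 (limma adjusted p = 0.956). Teddm2 overlaps Glul on the opposite strand and Mir8114 on the same strand.

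Slc1a3 encodes the glial glutamate transporter GLAST and spans chr15:8634124-8710764 on the minus strand, where Gm37310 overlaps it on the same strand. Slc1a3 had 196, 225 and 166 in stress females, against 219, 200 and 254 in control females, and 207, 243 and 196 in stress males, against 161, 224 and 205 in control males. The ranges overlapped throughout, and the log2 fold change of -0.03 had the widest 95% interval of the 9 markers, -0.26 to 0.20 (limma adjusted p = 0.865). Of 14 other genes of the glutamate and glutamine cycle, 5 fell, 2 rose and 7 were not called. The called share of all tested genes was 26.2%. Got1, a cytosolic aspartate aminotransferase, fell by 0.25 and Glud1, glutamate dehydrogenase, fell by 0.16. Slc38a1, a glutamine transporter, rose by 0.24 (1642 to 1849 in stress, 1417 to 1588 in control libraries).

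Gja1, the marker that rose, encodes connexin 43, a gap junction protein of glia and many other cells, and spans chr10:56377330-56402513 on the plus strand. Gja1 had a normalized signal of 954, 928 and 1090 in stress females, against 922, 754 and 858 in control females. In stress males it had 1015, 1150 and 1138, against 792, 854 and 707 in control males. The groups did not overlap, but in females the lowest stress library exceeded the highest control library by little, at 928 and 922. The mean was 1046 ± 94.4 in stress and 815 ± 78.4 in control libraries (SD, n = 6 each), 28.4% higher, with a log2 change of 0.36 ± 0.07 (SE) and a limma adjusted p of 0.000804. Relative to Apoe, Gja1 stood at 4.20% to 4.86% in stress and at 1.79% to 2.38% in control libraries. Among 13 other connexin, pannexin and junction genes, 1 rose, 1 fell and 11 were not called, below the 26.2% of all tested genes called. Gjd2, which encodes the neuronal connexin 36, rose by 0.32 and Panx2, a pannexin, fell by 0.33 (1257 to 1602 in stress, 1784 to 2001 in control libraries).

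Ptn encodes pleiotrophin, a secreted heparin-binding growth factor, and spans chr6:36714929-36810220 on the minus strand. Ptn had a normalized signal of 3809, 4266 and 4241 in stress females, against 3933, 3985 and 3788 in control females. In stress males it had 3806, 3696 and 3635, against 3752, 4017 and 3525 in control males. The groups overlapped in both sexes, and the log2 fold change was 0.03 (95% interval -0.06 to 0.12; limma adjusted p = 0.698). The related factor and the receptors did include called genes: of 9 tested, 2 rose, 2 fell and 5 were not called. Among all tested genes 26.2% were called, and Ltk was not among the genes in the table. Mdk, which encodes the sister factor midkine, fell by 0.41 (481 ± 77.3 in stress, 638 ± 62.7 in control; SD, n = 6 each). Ptprz1, a receptor phosphatase that binds pleiotrophin, rose by 0.36, with 2820 to 3779 in stress and 2273 to 2784 in control libraries. Sdc1 rose by 0.38 and Sdc4 fell by 0.30; both encode syndecans, heparan sulfate proteoglycans of the cell surface.

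Per kilobase of merged exon (GENCODE M21), the markers kept a nearly fixed order. Apoe was highest in all 12 libraries, at 10830 ± 917 normalized signal per kb in stress and 18000 ± 1096 in control libraries (SD, n = 6 each), followed by Fabp7 and then Glul. Fbln5, Gja1 and Slc1a3 closed the order in all 12, with Slc1a3 at 24.1 ± 3.11 in stress and 24.7 ± 3.62 in control libraries. The middle of the order differed between the treatments. In all 6 stress libraries Ptn (1059 to 1243 per kb) lay above Fbln2 (873 to 1043), which lay above Ednrb (619 to 824), with no overlap. In all 6 control libraries Fbln2 (1110 to 1286) came first, but the ranges of Fbln2, Ptn (1027 to 1170) and Ednrb (1038 to 1180) overlapped, and Ednrb exceeded Ptn in control female replicate 2 and control male replicate 3. Which transcript lengths the authors used is not given in the sources used here, so levels between genes are approximate.

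**Figure D2:**
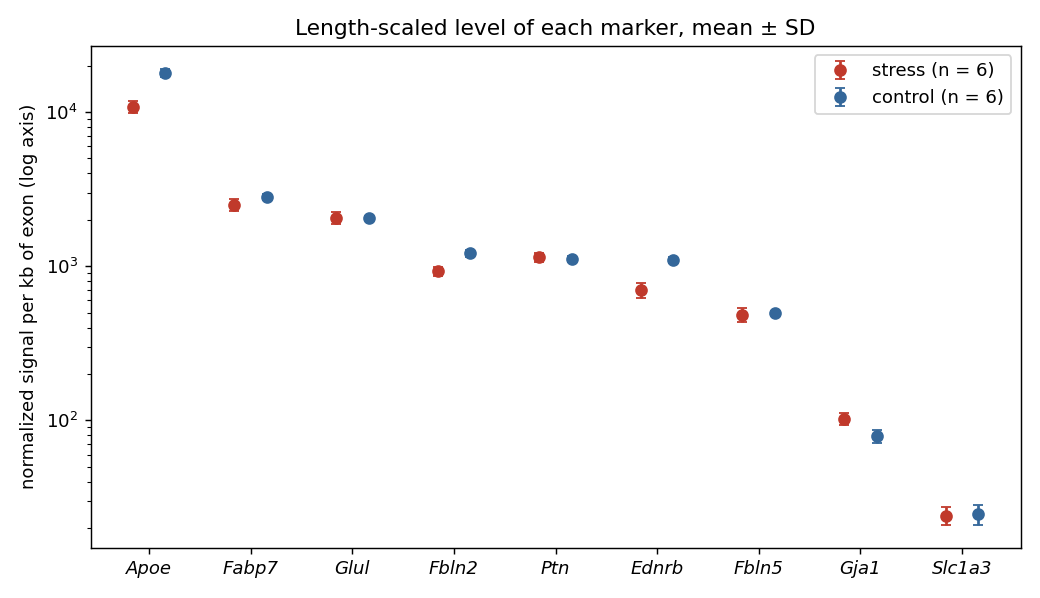
Normalized signal per kilobase of merged exon (vertical log axis) of each marker, as mean and SD over 6 stress libraries (red, left) and 6 control libraries (blue, right). The markers run from Apoe, at 10830 in stress and 18000 in control libraries, to Slc1a3, at 24.1 and 24.7; Fbln2 stands below Ptn in stress libraries and above it in control libraries.

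Within females, 3 of 9 markers fell and none rose, against 6.07% of all tested genes called lower, 4.96% called higher and 11.0% called in either direction. The log2 fold changes were -0.85 ± 0.07 for Apoe, -0.79 ± 0.07 for Ednrb and -0.50 ± 0.06 for Fbln2 (SE; limma adjusted p = 4.67e-06, 9.06e-06 and 0.000166). At an unadjusted p under 0.05 there were 5 of 9 markers in females, the others being Gja1 (0.23) and Fabp7 (-0.18), against 25.5% of all tested genes. Within males, 3 of 9 fell and 1 rose, against 8.11% called lower, 7.71% called higher and 15.8% in either direction. In males Apoe changed by -0.62 ± 0.07, Ednrb by -0.52 ± 0.07, Fbln2 by -0.29 ± 0.06 and Gja1 by 0.49 ± 0.09 (SE; limma adjusted p = 4e-05, 0.00016, 0.00527 and 0.0022).

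**Figure D3:**
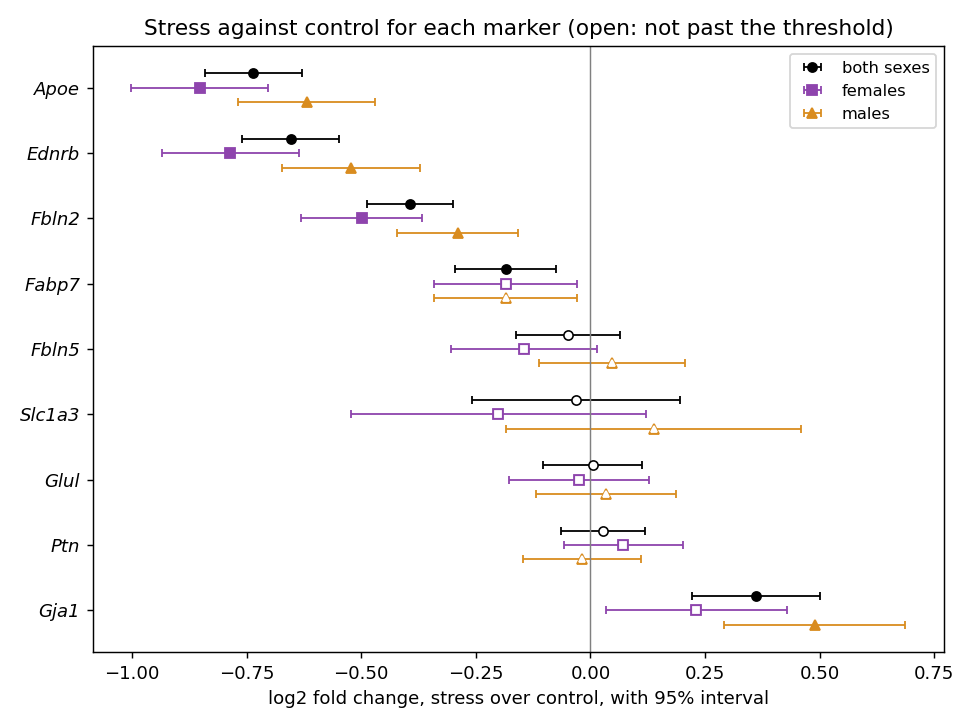
Log2 fold change of stress over control with its 95% interval (horizontal axis) for each marker, over both sexes (black), in females (purple) and in males (orange). Filled symbols passed the limma threshold and open ones did not; Apoe, Ednrb and Fbln2 lie left of 0 in all 3 comparisons, and their female values lie further left than their male values.

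The falls of Apoe, Ednrb and Fbln2 had larger point values in females, but the difference between the sexes was not called for any marker. The male minus female difference in log2 fold change was 0.23 ± 0.10 for Apoe, 0.26 ± 0.10 for Ednrb and 0.21 ± 0.09 for Fbln2 (SE; limma adjusted p = 0.585, 0.564 and 0.581). These 3 of 9 markers had an unadjusted p under 0.05, as did 8.29% of all tested genes, and 0.0% of genes were called by limma after adjustment. The difference was above 0 in 7 of 9 markers, and its median over all tested genes was -0.0013. The 7 join smaller falls in males (Apoe, Ednrb and Fbln2) with a larger rise in males (Gja1), and were not tested as a set. Between males and females over both treatments, 0 of 9 markers were called by limma, against 0.0987% of all tested genes. The lowest p was that of Ptn, lower in males by a log2 difference of -0.10 ± 0.04 (SE; limma unadjusted p = 0.0364, adjusted p = 0.506), and it was 1 of 9 with an unadjusted p under 0.05, against 9.46% of all tested genes.

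The authors' deposited table, from their own test of stress against control, has 4092 genes at an adjusted p under 0.05. In the authors' deposited table the same 5 markers are called, and its fold changes have the same sign as those given here for 9 of 9. In the authors' deposited table the log2 fold changes are -0.74 ± 0.06 for Apoe, -0.65 ± 0.06 for Ednrb, -0.39 ± 0.05 for Fbln2, -0.18 ± 0.05 for Fabp7 and 0.36 ± 0.08 for Gja1 (their standard errors).

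A second list of satellite glia genes did not move in 1 direction. Of 16, 3 rose, 4 fell and 9 were not called, against 26.2% of all tested genes called. Their median log2 fold change was -0.04. Ndrg2, a glial gene of the NDRG family, rose by 0.44 (5018 to 5773 in stress, 3703 to 4337 in control libraries), and Aldoc, the aldolase of glia, rose by 0.25. Sparcl1, a secreted matrix protein also called hevin, fell by 0.40 (7358 to 8624 in stress, 9965 to 11240 in control libraries) and the related Sparc fell by 0.26. Of 8 glial lineage genes 3 fell, 1 rose and 4 were not called, against the same 26.2%. S100b, a calcium-binding protein, fell by 0.47 and Sox10, the lineage transcription factor, fell by 0.36. Summed over the 8, the lineage genes lay at 27020 to 28960 in stress and 30480 to 32890 in control libraries, which do not overlap. Scaled to these lineage genes instead of by the authors' factors, a setting chosen after the data were seen, the median of all tested genes moved to 0.13 on the log2 scale, and Apoe (-0.61), Ednrb and Fbln2 were still called lower and Gja1 higher. With that scaling 4853 genes were called higher and 753 lower, against 1948 higher and 2036 lower with the authors' factors; Fabp7 was not called and Ptn was called higher, at 0.16.

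**Figure D4:**
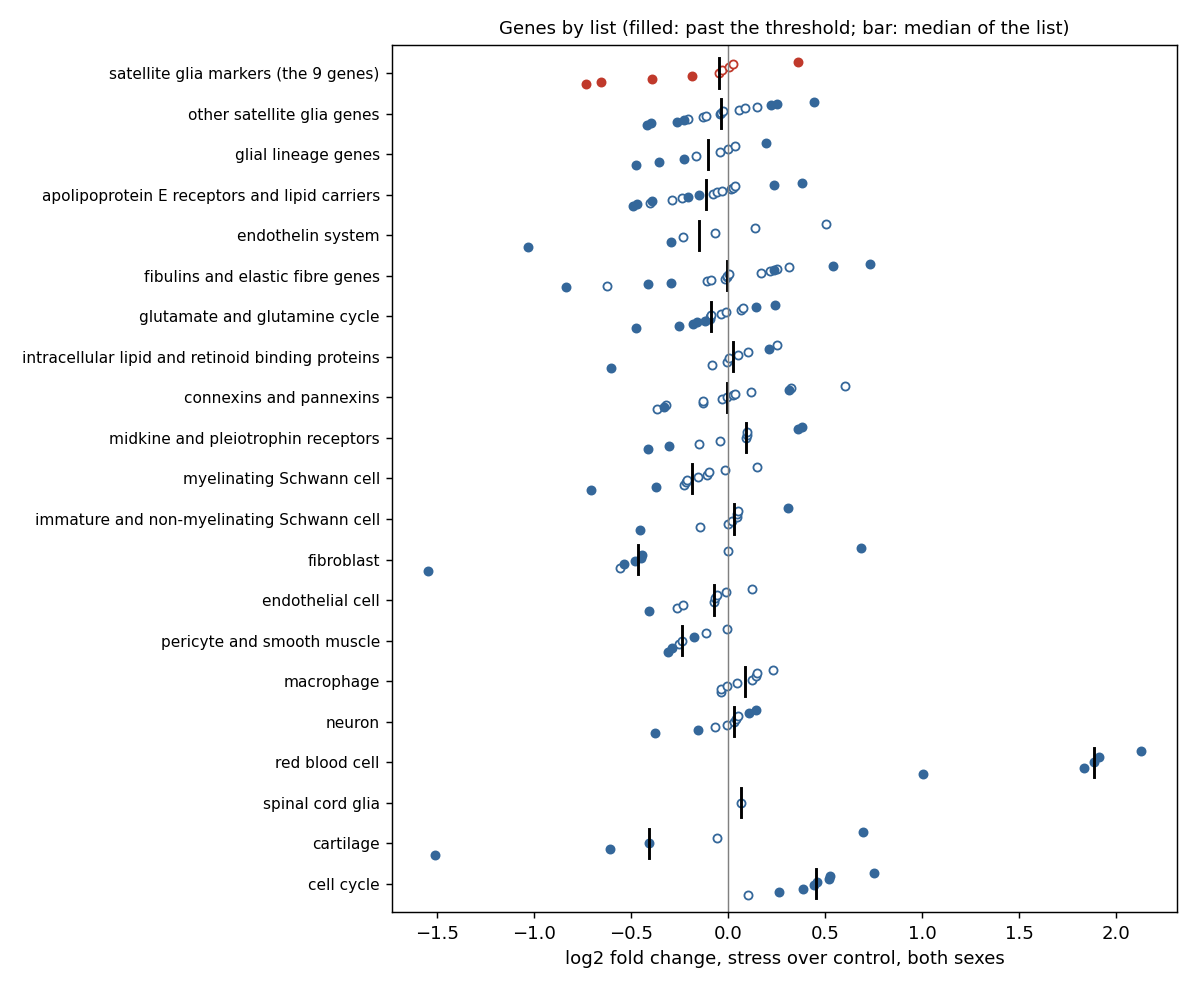
Log2 fold change of stress over control, both sexes (horizontal axis), of each tested gene of each list, with the 9 satellite glia markers in red at the top. Filled points passed the limma threshold, open points did not and the black bar is the median of the list, which is -0.05 for the 9 markers, -0.46 for the fibroblast genes and 1.89 for the red blood cell genes.

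Some markers of other cell types also differed between the treatments, and their part in the results for the 9 markers was not tested except where a value is given. Over both sexes 26.2% of all tested genes were called in either direction, the share to set beside each list below. The macrophage, endothelial and both Schwann cell lists lay below that share. Of 8 fibroblast genes 5 fell, 1 rose and 2 were not called, and their summed signal was 69230 to 102600 in stress and 111800 to 119300 in control libraries. Lum, Dcn, Col1a1 and Col3a1, for matrix proteoglycans and collagens, fell by 1.55, 0.44, 0.48 and 0.54 on the log2 scale. Fbln2, at -0.39, is a gene that fibroblasts also express. Of 7 pericyte and smooth muscle genes 3 fell and none rose (Rgs5 fell by 0.29), with sums of 6945 to 7301 in stress and 8073 to 9188 in control libraries. None of 8 macrophage genes was called by limma, with 1 of them, C1qb, at an unadjusted p under 0.05 (37.3% of all tested genes), and their sums overlapped at 2024 to 2574 in stress and 1921 to 2415 in control libraries.

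Among Schwann cell lists, 2 of 10 myelinating genes fell (Pmp2 by 0.71 and Drp2 by 0.37) and none rose, and of 8 immature and non-myelinating genes 1 rose (Gap43 by 0.31) and 1 fell (Sema3b by 0.45). Of 8 endothelial genes 1 fell, Egfl7, by 0.41. Of 9 neuron genes 2 rose (Isl1 by 0.14 and Elavl4 by 0.11) and 2 fell (Snap25 by 0.38 and Tubb3 by 0.16). Their summed signal, 234000 to 256000 in stress and 247800 to 259500 in control libraries, overlapped. Of 5 tested cartilage genes 3 fell and 1 rose (Col2a1 fell by 1.51), and 7 of 8 cell cycle genes rose, led by Aurkb by 0.75. Of the spinal cord glia list, Aqp4 alone was tested and was not called; Gfap was in the table but below the filter.

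All 5 tested red blood cell genes rose (Slc4a1 by 2.13 and Alas2 by 1.0), and their summed signal was 192 to 766 in stress and 118 to 212 in control libraries. The mean log2 level of these genes was then used as a covariate, also chosen after the data were seen. Apoe and Ednrb were still called over both sexes, at -0.615 and -0.48 (limma adjusted p = 0.007 and 0.0177). Over 22 alternatives their adjusted p ran from 1.54e-08 to 0.007 and from 5.7e-08 to 0.0177. Fbln2 and Gja1 kept their direction under that covariate, at -0.30 and 0.44, but were no longer called (limma adjusted p = 0.104 and 0.118), where the range over alternatives was 2.34e-06 to 0.104 and 1.93e-05 to 0.118. Fabp7 was no longer called either, although its log2 change of -0.24 ± 0.11 (SE) was no smaller than the -0.18 ± 0.05 without the covariate, and the count of called genes dropped to 317, against 3984 without the covariate. Under that covariate Apoe was still called in each sex, and Ednrb in females but not in males (-0.33, limma adjusted p = 0.131). Fbln2 was not called in females or in males (limma adjusted p = 0.0692 and 0.386), nor Gja1 in males (limma adjusted p = 0.0826). The score and the treatment vary together in these libraries.

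Besides the overlaps given above, some other partner genes and cell type markers named here overlap an annotated gene. S100b, Sparcl1, Lrp8, Ece1, Ednra, Edn1, Fabp3, Panx2, Gjd2, Snap25, Egfl7, Alas2 and Aqp4 overlap a gene on the opposite strand. Abcg1, Pmp2, Gap43, Col3a1, Tubb3 and Egfl7 overlap a gene on their own strand. Edn2, Edn3 and Gfap were not checked for overlaps. Whether the authors' quantification used strand is not stated in these sources, so reads of the partner strand may be included. Among the 9 markers this concerns Glul alone.

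Within the groups, each marker had its own set of closest genes. After each group's mean was taken out, the gene whose log2 level followed that of the marker most closely over the 12 libraries, among 11677 candidates, was Emc3 for Apoe (Pearson r = 0.941), Spon1 for Ednrb (0.938) and Itga7 for Fbln2 (0.95). For Fbln5 it was Adamts1, which encodes a matrix protease (r = 0.991), followed by Matn2, a matrix protein (0.953). The closest were Pdha1 for Fabp7 (r = 0.957), Lgmn for Glul (0.974), Arl13b for Slc1a3 (0.918), Cwf19l1 for Gja1 (0.952) and Ptpn21 for Ptn (0.921). None of the 3 closest genes of any marker was itself one of the 9. The 12 values share their libraries and the 4 fitted means, and these are the highest of many candidates, so they describe the libraries and were not tested.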

How the data were processed

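RNA of 12 ganglion samples was sequenced from directional libraries, per the labels' protocols. The submitters' processing notes list STAR, Salmon, DESeq2 and the build mm10 with no version; which annotation and strand setting were used is not given in the sources used here. Each gene of the deposited table has a signal per library which, judged from the values, the authors had normalized between libraries. Per the file headers, the table also holds the authors' log2 fold changes, a test score and p-values. Of the values above 0, 1.97% lay within 0.01 of a whole number. In no library did 95% of low values (up to 12) lie within 0.1 of a multiple of a step, so no count model was used; the shares were 28.9% to 66.3% in stress and 72.8% to 86.6% in control libraries.

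A signal of 10 or more in 3 or more libraries was asked of each gene, which 15194 met. Values were tested as log2(value + 1), which understates changes of low genes, with limma 3.58.1 in R 4.3.3: 1 model with a mean for each of 4 groups, a prior variance that follows mean expression, and Benjamini-Hochberg adjustment at 0.05. The steps were tested on simulated data. All 9 markers are named, with up to 4 genes of lowest p of each other list and the closest genes by residual correlation (mean signal of at least 100). Some genes that this rule names are left out of the text. Other genes named are examples of low or uncalled levels chosen after their values were seen (Ednra, Edn1, Edn2, Edn3 and C1qb). The members and lists were chosen with earlier results of these data known, so they are described by counts. Alternatives were 2 pseudocounts, 2 filters, upper quartile scaling, 1 prior variance, array weights, a replicate block, leaving out each library, and 2 settings added after seeing the data. Coordinates are those of GENCODE M21.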

Additional observations from a re-analysis of the deposited data

How the results depend on the processing

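Over both sexes, 5 of 9 markers were called with each of the 12 libraries left out in turn, and Apoe, Ednrb, Fbln2, Fabp7 and Gja1 kept their direction in all 22 alternatives. The red blood cell score as a covariate left 2 markers and 317 genes called over both sexes, 2 markers and 95 genes in females, and 1 marker and 227 genes in males. Scaling to the glial lineage genes gave 5 markers and 3062 genes in females, and 1 gene for the difference between the sexes. In that scaling Ptn was called higher over both sexes (0.16) and in females (0.22), and so was Gja1 in females (0.38), while Fbln2 in males (-0.18) was not called. Uncalled markers changed sign: with glial lineage scaling Fbln5 over both sexes (0.0807) and in females (0.0039), Slc1a3 over both sexes (0.0981), Glul in females (0.125) and Ptn in males (0.0923). With the red blood cell score these were Fbln5 over both sexes (0.0088), Glul in females (0.0097) and Ptn in males (0.059), and with array weights Glul over both sexes (-0.0107) and Fabp7 in the difference between the sexes (0.0392). The cause was not tested.

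Leaving out 1 library each gave 865 to 1951 called genes in females, 1334 to 2630 in males, 0 to 1 for the difference and 11 to 30 between the sexes. In females the count dropped to 891 without stress female replicate 1, to 889 without control female replicate 1 and to 865 without control female replicate 2, and in males to 1334 without control male replicate 2. Between the sexes it was 30 without stress female replicate 2 and 27 without stress male replicate 1, and 1 gene was called for the difference without stress female replicate 2, stress male replicate 1, control female replicate 1, control female replicate 2 or control male replicate 3. Sign changes there touched uncalled values only: over both sexes Fbln5 (-0.0926 to 0.0065), Glul (-0.0311 to 0.0449) and Slc1a3 (-0.0997 to 0.0249), in females Glul (-0.0965 to 0.0225), in males Fbln5 (-0.0402 to 0.158), Glul (-0.0173 to 0.114) and Ptn (-0.0648 to 0.0294), and for the difference Fabp7 (-0.0902 to 0.0773). Deviations of same-numbered stress and control libraries had r = -0.0151 to 0.148, not over 0.1 in every pair. With 3 libraries per group these values cannot decide whether the numbers pair the libraries, and the main model did not pair them. With a replicate block 5 markers were called over both sexes, and 2 genes were called for the difference between the sexes.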
